A study of Mus musculus with 3 samples.

Results

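The genes Runx1, Runx2, Runx3 and Cbfb encode the core-binding factors, and FLI1 and RUNX1 occupancy was read here at every annotated start of these 4 genes and over each gene body with 20 kb to either side, termed its territory. They were chosen by name as the whole family, 4 of the 22271 protein-coding genes of the annotation, and hold 10 of its 42330 starts. The data are ChIP-seq reads from mature megakaryocytes (MK_Mat_), the platelet-making cells, grown for 5 days in thrombopoietin from fetal livers of wild-type CD1 mice. The labels give the livers as E15, whereas the methods give an age 1 day younger. Chromatin was precipitated with Abcam antibody ab15289 against FLI1 or ab23980 against RUNX1, and an input library of unprecipitated chromatin served both. Each of the 3 libraries stands alone, and the labels give the DNA behind it as a pool of at least 3 replicates. There are thus no replicates, no test between conditions was possible, and all intervals below are 95% intervals that cover counting error only. The sources differ on whether the input was sheared like the ChIP samples or digested with micrococcal nuclease.

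RUNX proteins bind DNA through a shared Runt domain and read the letters TGTGGT or its reverse, ACCACA. CBF beta, the product of Cbfb, does not bind DNA itself but joins each RUNX protein and stabilises its grip. RUNX1 is needed for blood stem cells to form and for megakaryocytes to mature, RUNX2 directs bone formation, and RUNX3 acts in T cells and sensory neurons. Each Runx gene is transcribed from a distal and a proximal promoter, and Runx1 is known to be under the control of RUNX and ETS proteins, the family of FLI1, in blood cells.

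Of each library, 62946422 FLI1, 3973856 RUNX1 and 21745220 input reads were used. A 400-bp bin is therefore expected to hold 13.5 FLI1 reads but only 0.850 RUNX1 reads at the genome-wide rate, and RUNX1 values at single sites rest on few reads. The deposited read files hold fewer reads than the study's supplement lists for these antibodies, far fewer for RUNX1, so all counts and summits describe the files as deposited. Input reads are 34 bases long, whereas FLI1 and RUNX1 reads are 50 bases long. The effect of this difference on the ratios to input was not tested. As a check of the cell label, FLI1 was at least 2-fold over input at a start of 8 of 12 megakaryocyte marker genes, 0 of 6 erythroid, 1 of 6 granulocyte and monocyte (Mpo) and 0 of 6 lymphoid markers, where 27.9% of all genes have such a start. The RUNX1 library passed the same limit at 2, 0, 1 (Mpo again) and 0 of these genes, where 19.9% of all genes do, so its megakaryocyte count is near that share and does not bear on the label.

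The sequences that recur in the results below are shown first, from mouse genome mm9 and read 5′ to 3′ along the strand of the gene. The distal start of each Runx gene lies next to a pair of RUNX letters set 8 bp apart, here 30 bases long with the pair in capitals. The Runx2 sequence also ends in tgcggt, which is counted below among RUNX letters and left in lower case here. The pair begins 20 bp past the Runx1 start (chr16:92826270-92826299, minus strand), 23 bp past the Runx2 start (chr17:44951532-44951561, minus strand), both in the first exon, and 141 bp before the Runx3 start (chr4:134676418-134676447, plus strand).
Runx1 distal start: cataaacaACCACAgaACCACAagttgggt
Runx2 distal start: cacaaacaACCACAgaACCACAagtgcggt
Runx3 distal start: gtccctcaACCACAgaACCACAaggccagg

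All 3 share an unbroken run of 18 identical letters, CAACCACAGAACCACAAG. The spaced pair, searched on both strands from 250 bp before to 150 bp after each start, occurs at 8 of 42330 annotated starts (0.0189%), each of a different gene. Besides the 3 Runx genes these are Cacnb2, Card6, Fcho1, Nsun4 and Olfr24. This search was made after the pair had been seen at Runx starts. No RUNX letters (TGTGGT or TGCGGT, either strand), single or paired, lie in the same window at the other starts of the Runx genes or at the start of Cbfb. Over all annotated starts, 29.4% of windows hold RUNX letters and 35.3% hold ETS letters (CAGGAAG or CCGGAAG, or the same with a final A).

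The next sequences are 101 bases around the summits, the bases of highest read coverage, on which the account of single sites turns. Capitals mark RUNX or ETS letters.
Runx1 intron, FLI1 summit 110 kb past the distal start (chr16:92715867-92715967, minus strand): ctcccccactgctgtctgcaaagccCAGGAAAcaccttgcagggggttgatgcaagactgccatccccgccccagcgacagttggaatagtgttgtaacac
Runx1 intron, FLI1 summit 24.3 kb past the distal start (chr16:92801944-92802044, minus strand): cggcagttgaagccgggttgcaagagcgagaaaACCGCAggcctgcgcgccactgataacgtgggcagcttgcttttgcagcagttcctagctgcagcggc
Runx1 intron, RUNX1 summit 25.1 kb past the distal start (chr16:92801211-92801311, minus strand): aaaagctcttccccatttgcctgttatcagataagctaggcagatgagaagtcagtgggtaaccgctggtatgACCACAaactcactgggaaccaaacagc
Runx1 intron, RUNX1 summit 3.75 kb past the distal start (chr16:92822516-92822616, minus strand): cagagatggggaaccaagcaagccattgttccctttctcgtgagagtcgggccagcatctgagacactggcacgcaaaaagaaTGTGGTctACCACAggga
Runx2 intron, FLI1 summit 160 kb past the distal start (chr17:44791624-44791724, minus strand): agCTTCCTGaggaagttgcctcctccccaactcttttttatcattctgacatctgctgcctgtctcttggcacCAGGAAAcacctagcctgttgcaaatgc
Runx3 upstream, FLI1 summit 144 bp before the distal start (chr4:134676373-134676473, plus strand): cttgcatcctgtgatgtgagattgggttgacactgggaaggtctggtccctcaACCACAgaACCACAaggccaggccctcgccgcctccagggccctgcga

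Reads of both factors were counted at the paired letters. Within 200 bp of the Runx1 pair lay 96 FLI1, 7 RUNX1 and 6 input reads, a depth-scaled ratio to input of 5.53 (2.45 to 15.4) for FLI1 and 6.38 (1.84 to 23.0) for RUNX1. The Runx3 pair held 120 FLI1, 9 RUNX1 and 6 input reads, with ratios of 6.91 (3.08 to 19.2) and 8.21 (2.61 to 28.0). Both genes thus held reads of both factors above input at this element, and since the Runx3 pair was noticed under a FLI1 summit, its values are a description. The Runx2 pair, with 26 FLI1, 3 RUNX1 and 7 input reads, gave 1.28 (0.542 to 3.50) and 2.35 (0.391 to 10.3), so that neither factor could be told from input at this depth, and its intervals overlap those of Runx1 and Runx3. Within 100 bp the RUNX1 ratios were 4.38 at the Runx1, 5.47 at the Runx2 and 5.47 at the Runx3 pair, and without shifting reads to the fragment centre Runx2 was at 4.10. No intervals were computed for these values, and the 5.47 of Runx2 rests on at most 3 RUNX1 reads. The 3 Runx pairs together gave a RUNX1 ratio of 5.47 (2.74 to 10.9), with 19 RUNX1 and 19 input reads. The pairs near starts of the other 5 genes, with 3 RUNX1 and 24 input reads, gave 0.684 (0.132 to 2.25). Without the Runx3 pair the RUNX1 ratio of the Runx pairs was 4.21 (1.65 to 10.4), on 10 RUNX1 and 13 input reads, and this interval overlaps that of the other 5. FLI1 ratios were 4.40 (2.76 to 7.44) at the Runx pairs and 2.43 (1.58 to 3.90) at the other 5, and these intervals overlap.

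Runx1 had 23 FLI1 and 4 RUNX1 summits. Its territory spans 264.6 kb (chr16:92581712-92846311, minus strand) and held 11325 FLI1, 697 RUNX1 and 3330 input reads. These numbers give a FLI1 ratio of 1.18 (1.13 to 1.22) and a RUNX1 ratio of 1.15 (1.05 to 1.24) over the territory, above the medians of all genes, 0.976 for FLI1 and 0.940 for RUNX1. The ratios stand at percentiles 81.4 and 81.3 of all genes tested. The peak caller placed 23 FLI1 summits there, of which 20 were intronic, 2 exonic and 1 upstream. That is 8.69 per 100 kb, at percentile 88.1, against a median of 2.45 per 100 kb over the territories of all genes tested. The reads behind a FLI1 summit, counted over 2 fragment lengths, ranged from 26 to 178 with a median of 50.

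The stretch of Runx1 between the distal promoter (chr16:92826311) and the proximal promoter (chr16:92697573), nearly all of it intron, held most of these sites. Its 128.7 kb carried 17 FLI1 and 3 RUNX1 summits, whereas the 95.86 kb of the gene past the proximal promoter carried 5 and 0. FLI1 density was 13.2 and 5.22 summits per 100 kb in the 2 stretches. FLI1 reads over input were likewise higher before the proximal promoter, 1.33 (1.26 to 1.41) against 1.09 (1.02 to 1.17). For RUNX1 the ratios of 1.22 (1.08 to 1.36) and 1.197 (1.04 to 1.37) did not separate the 2 stretches. The stretch between the promoters thus differed from the rest of the gene in FLI1 reads and not detectably in RUNX1 reads.

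**Figure D1:**
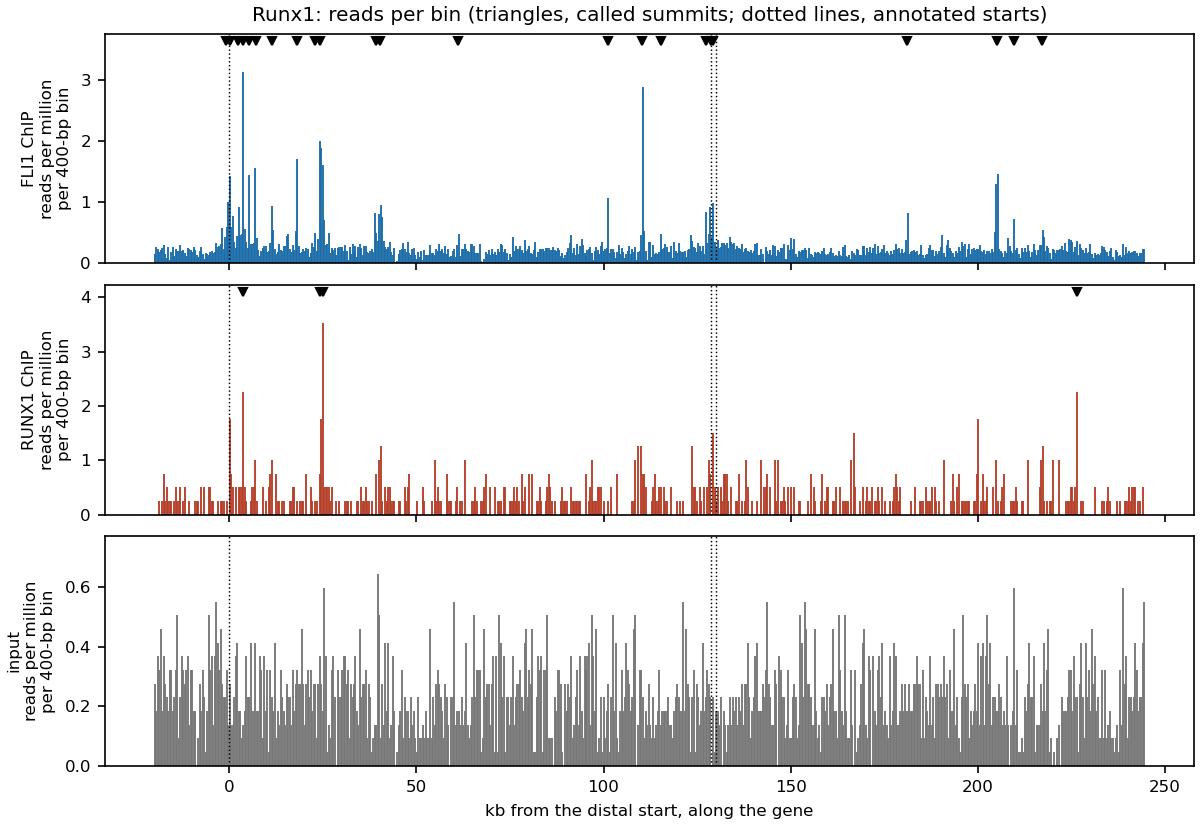
The panels give RPM (reads per 1000000 reads of the library) in 400-bp bins over Runx1 with 20 kb to either side, for FLI1, RUNX1 and input, against distance in kb from the distal start; each panel has its own vertical scale. Triangles mark called summits, with 23 for FLI1 and 4 for RUNX1, and dotted lines the 3 annotated starts. Most FLI1 triangles and 3 of the 4 RUNX1 triangles lie before the proximal start.

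An element 24.3 to 25.1 kb past the distal start of Runx1 was above input in both libraries. Its FLI1 summit (chr16:92801994) had 176 reads, and a RUNX1 summit with 9 reads lay 6 bp away, next to the letters ACCGCA. Within 200 bp of the FLI1 summit there were 216 FLI1, 9 RUNX1 and 7 input reads, ratios of 10.7 for FLI1 and 7.04 (2.33 to 22.2) for RUNX1. The RUNX1 summit with most reads of the 4 genes (chr16:92801261) lay 733 bp from the nearest FLI1 summit and rested on 16 reads, 6 from the plus and 10 from the minus strand. It held 125 FLI1, 16 RUNX1 and 6 input reads within 200 bp, a RUNX1 ratio of 14.6 (5.42 to 45.5) and a FLI1 ratio of 7.20. Both factors were thus above input at both ends of this element, with more FLI1 reads at the one end and more RUNX1 reads at the other. A RUNX1 summit was called at either end and a FLI1 summit at the first, so these excesses follow from the calls and are a description. In 100-bp windows along the gene Runx1, FLI1 fell from 84 reads at its summit to 4 reads 300 bp on. It rose again to 42 reads at 700 bp. RUNX1 had 4 reads at the FLI1 summit and 11 at 700 bp. The caller keeps 1 summit per merged region, and no FLI1 summit was called at this second maximum.

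A second shared site lay 3.65 kb past the distal start. The FLI1 summit (chr16:92822658) had 126 reads, and a RUNX1 summit 92 bp away had 9, from 4 plus-strand and 5 minus-strand reads. The RUNX1 summit held 202 FLI1, 9 RUNX1 and 3 input reads within 200 bp, a RUNX1 ratio of 16.4 (4.10 to 94.3). As summits of both libraries were called here, this excess follows from the calls and is a description. A pair of RUNX letters facing each other, TGTGGTctACCACA, lie at the edge of its printed sequence. As called, both libraries had summits within 300 bp of each other in Runx1 at these 2 places and nowhere else. The FLI1 maximum 700 bp beyond the 24.3-kb summit had no summit of its own. The RUNX1 summits of these 2 places had a Poisson p of 1.02e-06 at 24.3 kb and 1.63e-07 at this second site. Neither passes 1e-10, a limit that left 1 RUNX1 summit in Runx1 in place of 4. With the RUNX1 library scaled up to the input, 32 were called.

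The RUNX1 interval over input lay above 1 at 5 of the 23 FLI1 summits of Runx1, where 11.4% of all FLI1 summits reach this. Besides the 2 shared sites these were the summit 83 bp past the distal start, whose reads are those given for the paired letters, that 599 bp past the proximal start, at 6.57 (1.67 to 27.2) on 6 RUNX1 reads, and that 217 kb past the distal start, at 9.12 (1.77 to 58.7) on 5. The FLI1 summit with most reads in Runx1 (chr16:92715917, 178 reads, 17.4-fold over the expected number) lies 110 kb past the distal start and 18344 bp before the proximal one, on the ETS letters CAGGAAA. It held 192 FLI1, 4 RUNX1 and 5 input reads within 200 bp, and its RUNX1 ratio of 4.38 has an interval from 0.869 to 20.3. The remaining RUNX1 summit (chr16:92599809), downstream of the gene, differed in kind. It had 8 plus-strand reads and 1 minus-strand read, no RUNX letters within 50 bp, and a FLI1 ratio of 1.59. It is given as called, and the part of this strand split in the call was not tested.

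**Figure D2:**
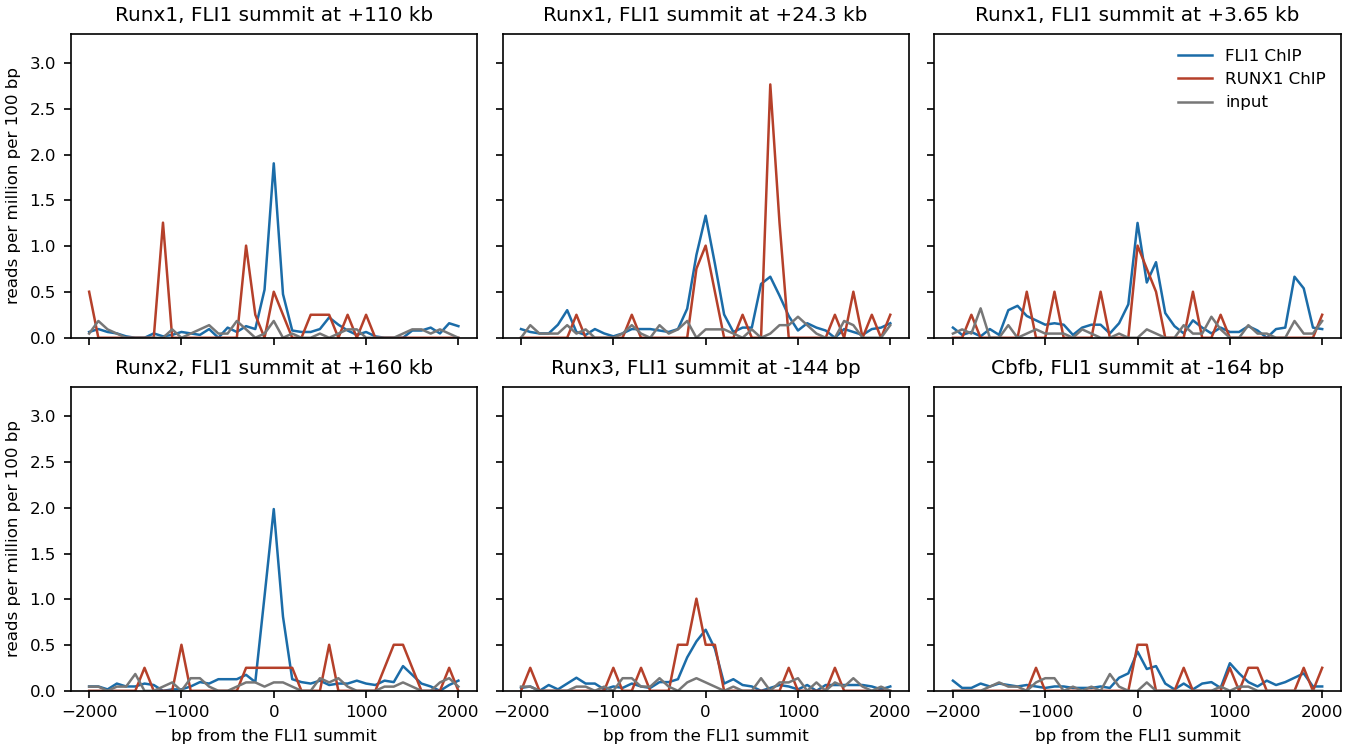
The panels give RPM in 100-bp windows for FLI1, RUNX1 and input, against distance in bp from a FLI1 summit, along the gene, on 1 common vertical scale. Shown are the 3 FLI1 summits of Runx1 with most reads and the 1 with most reads of Runx2, Runx3 and Cbfb. RUNX1 reads peak with FLI1 at the Runx1 sites 24.3 and 3.65 kb past the start and near the Runx3 start, and 700 bp beyond the FLI1 summit at the 24.3-kb site.

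Starts were read in windows of 2 kb to either side and called at a ratio of 2. FLI1 passed at 6 of the 10 starts, where 17.2% of all start windows pass, and in all 4 genes, where 27.9% of genes have such a start. RUNX1 also passed at 6 of the 10, against 12.2% of all start windows, and in 3 of the 4 genes, against 19.9% of genes. Both factors passed at 4 starts, the second and the third of Runx1, the third of Runx2 and that of Cbfb. The share of all starts that pass in both libraries was not counted, and both ratios divide by the same input reads. Input was below its genome-wide expectation of 46.5 reads at 9 of the 10 starts, which raises a ratio to input. The share of all starts below it was not counted, so this may hold for start windows in general. Against the genome-wide rate of each ChIP library itself, a comparison added once the data had been examined, 3 starts passed for FLI1, the 3 of Runx1, where 11.9% of all starts pass. With RUNX1 reads 3 starts passed, where 4.11% of all starts do, namely the second and the third of Runx1 and the second of Runx2. At the limit of 2, some calls held in every alternative run for their library. They were those of FLI1 at the 3 Runx1 starts and of RUNX1 at the second and the third of Runx1 and the second of Runx2. The alternatives were of window, strand, shift, scaling and background, and for FLI1 alone also of depth. The calls of both factors at Cbfb, of both at the third Runx2 start, of RUNX1 at the distal Runx2 start and of FLI1 at the third Runx3 start were each lost in at least 1 of them.

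At the distal Runx1 start 387 FLI1, 17 RUNX1 and 55 input reads gave ratios of 2.43 (1.83 to 3.29) for FLI1 and 1.69 (0.920 to 2.96) for RUNX1. The proximal start held 325, 22 and 41 reads, with ratios of 2.74 (1.98 to 3.89) and 2.94 (1.67 to 5.05). The third start, 1.32 kb further on, whose window overlaps the proximal one, held 291, 20 and 30 reads and gave 3.35 (2.30 to 5.06) and 3.65 (1.96 to 6.64). FLI1 was above input at each Runx1 start, and the intervals of the distal and proximal ratios overlap in both libraries. With windows of 1 kb to either side the distal start gave ratios of 4.38 for FLI1 and 3.23 for RUNX1, past the limit in both libraries. In RPM, the distal window of 2 kb to either side had more FLI1, 6.15 against 5.16, and less RUNX1, 4.28 against 5.54.

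Runx2 passed the limit for RUNX1 at each of its 3 starts, the distal and the third only in some settings, and its FLI1 summits lay elsewhere. Its distal start (chr17:44951576) held 145 FLI1, 14 RUNX1 and 35 input reads, ratios of 1.43 (0.984 to 2.13) and 2.19 (1.09 to 4.17). This RUNX1 ratio was below the limit with 1 kb to either side, at 1.60, with 5 kb, at 1.45, and in minus-strand reads, at 1.37. The proximal start (chr17:44873597) had 158, 20 and 29 reads, and RUNX1 reached 3.77 (2.02 to 6.91) beside 1.88 (1.26 to 2.90) for FLI1, which passed at 2.80 with 1 kb to either side. The third start, 1.96 kb further on, had 158, 15 and 22 reads and ratios of 2.48 (1.58 to 4.07) and 3.73 (1.80 to 7.53). The windows of these last 2 starts overlap, so their reads are partly the same. Input there was 0.623 and 0.473 times its expectation. Over the genome-wide rate RUNX1 was 2.35 (1.44 to 3.63) and 1.76 (0.987 to 2.91) at these starts and FLI1 1.17 at each, so the 2-fold FLI1 call at the third start was made beside low input.

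**Figure D3:**
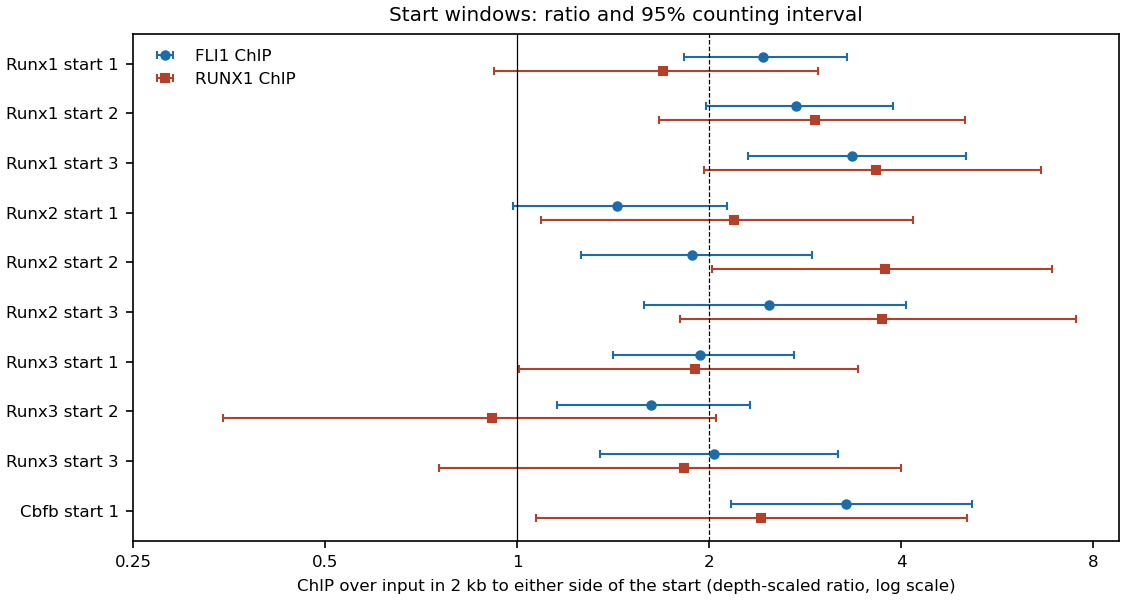
Depth-scaled ratio of FLI1 and RUNX1 reads to input reads in windows of 2 kb to either side of each of the 10 annotated starts, on a log scale, with 95% counting intervals. The dashed line is the 2-fold limit, which 6 FLI1 points and 6 RUNX1 points pass, and the solid line is equality with input. RUNX1 intervals are wide because 7 to 22 RUNX1 reads lie in each window.

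No Runx2 start had a FLI1 or RUNX1 summit within 2 kb. The 18 FLI1 summits of its 358.8-kb territory (chr17:44612936-44971746, minus strand) were 17 intronic and 1 exonic, or 5.02 per 100 kb. The FLI1 summit with most reads of all 52 in the 4 genes is among them. It lies 160 kb past the distal start (chr17:44791674), had 230 reads, 24.3-fold over the expected number, and carries ETS letters at 2 places within 50 bp. Around it 249 FLI1, 4 RUNX1 and 6 input reads gave a FLI1 ratio of 14.3 and a RUNX1 ratio of 3.65 (0.757 to 15.4). The next summits of Runx2, with 91 reads at 199 kb and 75 reads at 124 kb, each had ETS letters, and 1 RUNX1 read lay within 200 bp of either. No RUNX1 summit was called in the territory, and the nearest to any of these 3 lay 882746 bp off. With the RUNX1 library scaled up to the input, 31 RUNX1 summits were called in it, a setting that gives 186606 over the genome. The RUNX1 interval lay above 1 at 2 of the 18 FLI1 summits, with 6 and 5 RUNX1 reads, near the 11.4% of all FLI1 summits. Over the whole territory FLI1 was at 1.03 (0.991 to 1.07) and RUNX1 at 0.979 (0.902 to 1.06) of input. The Runx2 body also overlaps Supt3h, a transcription cofactor gene on the opposite strand, and reads cannot be assigned to one or the other. Supt3h begins at chr17:44914101. The FLI1 summits at chr17:44913990 and chr17:44914515, counted above as Runx2 intronic, lie to either side of that position.

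The RUNX1 summit of Runx3, and its FLI1 summit with most reads, lay near the distal start. The FLI1 summit 144 bp before this start (chr4:134676423) had 97 reads, and a RUNX1 summit 290 bp before it (chr4:134676277) had 8 reads, 4 on each strand. No RUNX1 summit was called in Runx3 at a p of 1e-10, and 7 were with the RUNX1 library scaled up to the input. Within 200 bp of the FLI1 summit lay 125 FLI1, 9 RUNX1 and 6 input reads, a RUNX1 ratio of 8.21 (2.61 to 28.0). The RUNX1 summit lies 146 bp away, so this excess also follows from the calls and is a description. The reads surround the paired ACCACA letters shown above. The 4-kb window of the start had 258 FLI1, 16 RUNX1 and 46 input reads and ratios of 1.94 (1.41 to 2.71) and 1.90 (1.01 to 3.43), both just below the limit of 2, and with 1 kb to either side it passed in both libraries, at 2.37 and 2.74. The second start (chr4:134708411) held 197, 7 and 42 reads, with ratios of 1.62 (1.16 to 2.32) for FLI1 and 0.912 (0.346 to 2.05) for RUNX1, and a FLI1 summit of 28 reads lay 314 bp before it. At the third, 1.94 kb on, 159, 9 and 27 reads gave 2.03 (1.35 to 3.18) for FLI1, just above the limit, and 1.82 (0.755 to 4.00) for RUNX1, and a FLI1 summit of 27 reads lay 558 bp before it. With 1 kb to either side the FLI1 ratios of these starts were 2.09 and 1.80, on the other side of the limit in each case.

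The Runx3 territory of 97.34 kb (chr4:134656567-134753905, plus strand) held 8 FLI1 summits, or 8.22 per 100 kb, of which the other 7 had 27 to 50 reads. The next in reads lay 17702 bp before the distal start, with 50 reads, and 58.7 kb past it, with 34, each with ETS letters within 50 bp, and 1 and 0 RUNX1 reads lay within 200 bp of them. A summit 74.5 kb past the start also had 34 reads, with ETS letters at 2 places within 50 bp and 1 RUNX1 read within 200 bp. The territory as a whole was below input, at 0.874 (0.820 to 0.933) for FLI1 and 0.829 (0.709 to 0.964) for RUNX1. Input was also densest here, with 0.609 RPM per kb against 0.445 to 0.579 in the other 3 territories. The part of the low ratios that input takes was not tested.

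Cbfb had 2 FLI1 summits near its start and no RUNX1 summit, while its start window passed the limit in both libraries. With the RUNX1 library scaled up to the input, 9 RUNX1 summits were called in the territory. The start window (chr8:107694574) held 237 FLI1, 11 RUNX1 and 25 input reads, ratios of 3.28 (2.17 to 5.16) and 2.41 (1.07 to 5.07). The RUNX1 value was 4.10 in plus-strand and 0.842 in minus-strand reads, and 1.14 with 5 kb to either side, so that its direction and its call both turn with the strand read. Input was 0.537 times its expectation there, and over the genome-wide rate the 2 factors stood at 1.76 (1.54 to 2.00) and 1.29 (0.646 to 2.32). Of the 3 FLI1 summits in the 87.31-kb territory (chr8:107674574-107761886, plus strand), 1 lay 164 bp before the start with 48 reads and another 866 bp past it with 34. The last, with 39 reads, lay 54.5 kb past the start and 5 bp into the neighbouring gene D230025D16Rik, at the start of that gene. None of them had ETS or RUNX letters, in the exact forms given above, within 50 bp. Other forms of such sites were not sought. Few RUNX1 reads were involved, since 4, 2 and 5 lay within 200 bp of these summits, beside 3, 3 and 2 input reads, and at the first and the last the RUNX1 interval lay above 1. Over the territory FLI1 was at 1.10 (1.02 to 1.19) and RUNX1 at 1.13 (0.952 to 1.33) of input.

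**Figure D4:**
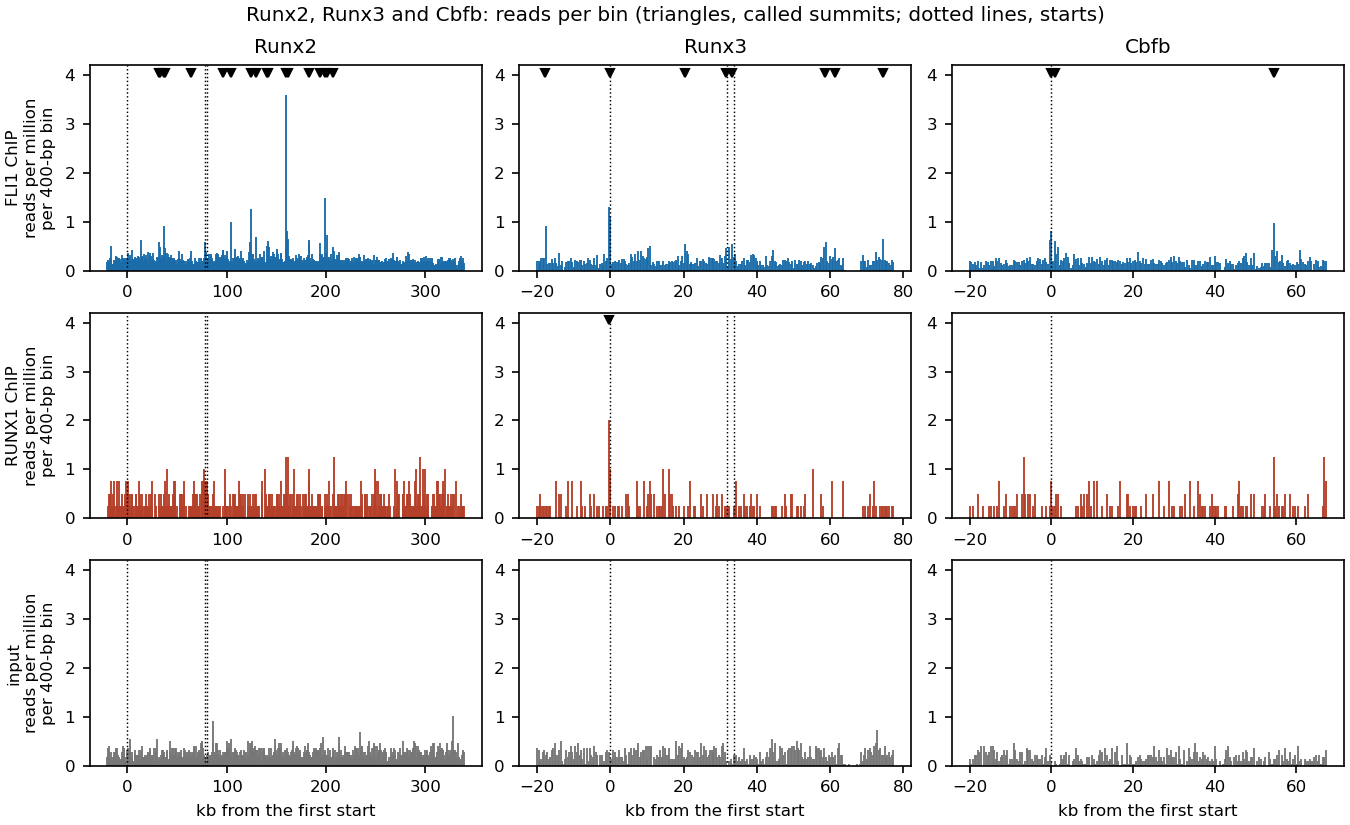
The panels give RPM in 400-bp bins over Runx2, Runx3 and Cbfb with 20 kb to either side, against distance in kb from the first start, with 1 vertical scale for FLI1, RUNX1 and input. Triangles mark summits, 18, 8 and 3 for FLI1 and 1 for RUNX1, in Runx3. The tallest FLI1 bin, 3.59 RPM, is in the Runx2 intron, where no RUNX1 summit was called.

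Set side by side, the 4 genes differed in where and how densely they were occupied. FLI1 summits lay within 2 kb of a start in 3 of the 4 genes, all but Runx2, where 47.3% of all genes have one, and in the territory of all 4, where 71.1% do. RUNX1 summits lay within 2 kb of a start in 1 gene, Runx3, against 1.99% of all genes, and in the territory of 2, Runx1 and Runx3, against 5.58%. Territories differ in length, and long ones have more room for summits. By FLI1 density the order was Runx1 at 8.69, Runx3 at 8.22, Runx2 at 5.02 and Cbfb at 3.44 summits per 100 kb. Runx3 came before Runx1 when input was not used, at 9.25 against 8.69, and with flanks of 50 kb, at 10.2 against 8.93, and came last at a p of 1e-10, at 2.05 on 2 summits. Cbfb came before Runx2 with fragments of 150 bp, at 4.58 against 4.46, and at a p of 1e-10, at 3.44 against 2.23. With FLI1 thinned to the RUNX1 depth Runx1 was at 2.65 and Runx2 at 0.557, and Runx3 and Cbfb had no summit. By ratio to input over the territory it was Runx1, Cbfb, Runx2 and Runx3 in both libraries. With flanks of 50 kb Cbfb came last for FLI1, at 0.974 below 0.985 for Runx3 and 1.01 for Runx2, and for RUNX1 Cbfb came before Runx1 with flanks of 10 kb, at 1.21 against 1.17, and in plus-strand reads, at 1.19 against 1.14. With flanks of 20 kb the FLI1 intervals of Runx1 and Cbfb overlap, as do those of Cbfb and Runx2, and Runx3 lies below the other 3. RUNX1 intervals overlap between each pair of neighbours in the order. No territory reached 1.2-fold in either library, where 16.0% of all genes did for FLI1 and 13.7% for RUNX1.

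In 400-bp bins, 21 of the 2023 bins in the 4 territories were at least 4-fold over expectation for FLI1, or 1.04% against 0.408% of bins in all gene territories. Runx1 held 14 of them (2.11% of its bins), Runx2 4 (0.445%), Runx3 2 (0.820%) and Cbfb 1 (0.457%). The shares of Runx2 and Cbfb were thus near that of all gene territories. For RUNX1, 3 bins were at least 8-fold, all in Runx1, or 0.148% against 0.0231%. Both were called in 2 bins, those 3.71 and 24.9 kb past the distal start of Runx1, and the share of all bins called in both was not counted. The former held 197 FLI1, 9 RUNX1 and 3 input reads and the latter 101, 14 and 4. Depth bears on how many summits are found. With the FLI1 library thinned to the RUNX1 depth, 9 FLI1 summits in place of 52 were called in the 4 territories, beside 5 for RUNX1.

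RUNX1 reads were also counted over the FLI1 summits as a group. Over the 23 FLI1 summits of Runx1, 66 RUNX1 and 128 input reads within 200 bp gave a ratio of 2.82 (2.06 to 3.83). Over the 18 of Runx2, 29 and 84 reads gave 1.89 (1.19 to 2.91), and over the 8 of Runx3, 12 and 35 reads gave 1.88 (0.887 to 3.70). The 3 of Cbfb, with 11 and 8 reads, gave 7.52 (2.76 to 21.6). Of these, 5 RUNX1 and 2 input reads lay at the summit by the start of the neighbouring gene D230025D16Rik. Of these summits, 2 in Runx1 and 1 in Runx3 have a RUNX1 summit within 300 bp, and the counts were repeated without them, a choice made after seeing the data. Runx1 then gave 2.25 (1.58 to 3.17), with 49 RUNX1 and 119 input reads, and Runx3 0.566 (0.110 to 1.83), with 3 and 29, so 9 of the 12 RUNX1 reads of Runx3 lay at the site by its start. All 49 such summits gave 2.10 (1.63 to 2.68), beside 1.88 (1.87 to 1.90) for the other 41247 of the genome. The ratio in the rest of each territory, over 1 kb from any summit, was 0.996 in Runx1, 0.958 in Runx2, 0.805 in Runx3 and 1.04 in Cbfb. The 52 summits together gave 2.53 (2.02 to 3.16), beside 2.04 (2.02 to 2.06) for the other 41855 FLI1 summits of the genome, and these intervals overlap. At the 4 summits with 100 or more FLI1 reads, 3 in Runx1 and 1 in Runx2, the RUNX1 ratio was 6.84 (3.65 to 13.0), beside 3.35 (3.30 to 3.41) for the other 6051 summits of that strength. Among these 4 are the 2 Runx1 sites with a RUNX1 summit, and the other 2 held 4 RUNX1 reads each. At summits with 50 to under 100 FLI1 reads the members gave 2.11 (1.36 to 3.21) beside 2.09 (2.06 to 2.12), and below 50 reads 2.20 (1.60 to 2.97) beside 1.59 (1.57 to 1.61).

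**Figure D5:**
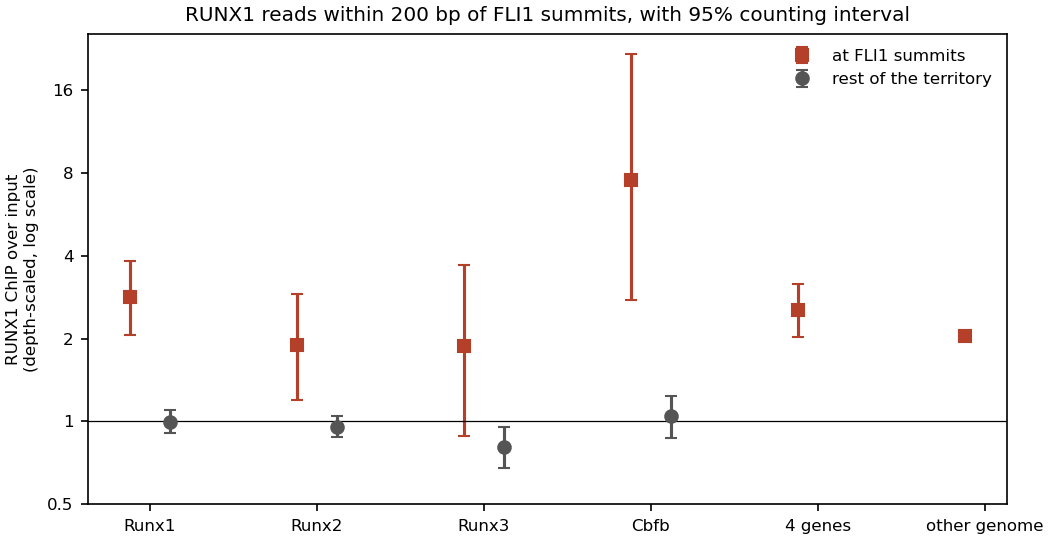
RUNX1 reads over input reads, depth-scaled and on a log scale, within 200 bp of FLI1 summits (squares) and in the rest of each territory (circles), with 95% counting intervals. Squares of Runx1, Runx2 and Cbfb lie above equality with their whole interval, that of Runx3 spans it and includes the site by its start, and the circles lie between 0.805 and 1.04. The square of Cbfb includes the summit by the start of D230025D16Rik.

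Of the 52 FLI1 summits, 3 had a RUNX1 summit within 300 bp (5.77%, against 1.46% of all 41907 FLI1 summits), and conversely 3 of the 5 RUNX1 summits had a FLI1 summit (60.0%, against 61.5% of all 994). The RUNX1 summit 25.1 kb past the distal Runx1 start counts as unpaired, though a FLI1 maximum without its own summit lies there. ETS letters lay within 50 bp of 20 of the 52 FLI1 summits, or 38.5%, where 52.8% of all FLI1 summits and 7.62% of flanking windows hold them. RUNX letters lay at 14 of the 52, or 26.9%, beside 18.4% of all FLI1 summits and 8.31% of flanks. Of the 5 RUNX1 summits 3, all in Runx1 introns before the proximal promoter, had RUNX letters, beside 23.9% of all RUNX1 summits and 7.75% of flanks. A match of letters describes the sequence and is not a measured contact. ETS and RUNX letters together were present at 4 of the 52, beside 9.23% of all FLI1 summits and 0.574% of flanks.

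Genes whose products work with RUNX proteins were counted from lists fixed with the design. Of 25 cofactors, 18 had a start at 2-fold for FLI1 and 13 for RUNX1, with medians of the best start of 2.23 and 2.09, against 1.36 and 1.29 over all genes, of which 27.9% and 19.9% have such a start. Of 14 partner transcription factors 9 and 8 passed, and of 12 genes known as RUNX1 targets in megakaryocytes 7 and 4. Gfi1 is not annotated as protein-coding in this release and was left out. The highest FLI1 ratios in these lists were those of Fli1 itself, at 8.04 (5.68 to 11.8), of Lyl1, a helix-loop-helix factor of blood cells, at 7.30 (5.59 to 9.69), and of Sin3a, a scaffold of histone deacetylase complexes, at 5.84 (4.28 to 8.18). For RUNX1 they were Nfe2, the factor of late megakaryocytes that stands in 2 of the lists, at 4.66 (2.98 to 7.25), Fli1 at 3.98 (2.25 to 6.94) and Tal1, a regulator of blood stem cells, at 3.70 (2.08 to 6.47). The Runx1 starts reached 3.35 (2.30 to 5.06) for FLI1 and 3.65 (1.96 to 6.64) for RUNX1, the latter with an interval that overlaps those of Nfe2, Fli1 and Tal1.

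By both ratios over the territory, 2 values per gene, the genes nearest to Runx1 among 11854 with at least 100 RUNX1 reads were Cutc, Ripk2 and Rnf6. Those nearest to Cbfb were Lrrfip2, Fam60a and Tanc2. All 6 lay within 0.00369 log2 units of the gene they resemble, which is less than the counting interval of either ratio.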

How the data were processed

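FLI1, RUNX1 and input libraries of mature megakaryocytes were analysed, 1 of each. The authors aligned reads to mm9 using Bowtie (version not given in the sources used here), kept uniquely mapped reads, and deposited read positions and strands. The values in the deposited files are positions, so every count, signal and ratio here was computed from them. The submitters' processing notes also name MACS 1.4 and SICER 1.1, which were not used here. In a comparison of 20000 reads per ChIP library with the reference genome NCBIM37 (mm9), 96.8% of FLI1 and 98.1% of RUNX1 reads had at most 3 mismatches. Genes are those of GENCODE M1.

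Mitochondrial reads and repeated input positions (3.24%) were removed. Reads were moved to the fragment centre (fragments of 126 bp for FLI1, 159 bp for RUNX1 and input) and counted around starts, starts of a gene within 500 bp being merged, over territories and in bins. Ratios were scaled by total reads, with exact conditional binomial 95% intervals, and start windows and territories of all genes needed 10 input reads. Bins were set against whichever was greatest of the mean rate over the genome, the input in the bin and the input over 5 kb. Summits come from a caller modelled on MACS 1.4, which scans 2 fragment lengths at a time, takes local input over 1, 5 and 10 kb and requires a Poisson p below 1e-05. It gave 41907 FLI1 and 994 RUNX1 summits and, with the intervals, was tested on simulated data. Motif letters were sought on both strands within 50 bp of summits, and flanks are windows 500 bp away.

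The genes, lists and limits were chosen with earlier results of these data known. The genes named are the 4 members with every start, the 3 FLI1 summits with most reads and every RUNX1 summit of each territory, the 3 starts of the lists highest in either ratio, and the 3 genes nearest to Runx1 and Cbfb. Genes and sites named beyond this rule (other genes with the paired letters, neighbours that overlap a site, Mpo, and other FLI1 summits of the members) were chosen after their values were seen. The symbols Kat6a, Kat6b, Kmt2a, Spi1 and Bloc1s6 were matched through older names. Alternatives varied windows, flanks, bins, limits, strands, read shift, depth, scaling and the caller. Python 3.11.15, numpy 2.4.6, scipy 1.17.1 and pandas 2.3.3 were used.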

Additional observations from a re-analysis of the deposited data

How the results depend on the processing

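No paired analysis was possible because each antibody has 1 library. The number of starts called for FLI1, 6, became 3 with 5 kb to either side, 2 at a limit of 3-fold and 3 over the genome-wide rate, and that for RUNX1, also 6, became 3 at 3-fold and 3 over the genome-wide rate. The RUNX1 ratio at the Cbfb start fell to 0.842 in minus-strand reads alone. From 0, the FLI1 territories at 1.2-fold became 1 with thinned FLI1 or a flank of 10 kb, Runx1 in both cases, and the RUNX1 territories became 1 with 10 kb, Cbfb. The 21 FLI1 bins became 41 with thinned FLI1, 39 at 200 bp, 6 at 1000 bp and 7 at 6-fold. The 3 RUNX1 bins became 5 in minus-strand reads, 14 at 200 bp, 0 at 1000 bp and 1 at 12-fold. The 52 FLI1 summits became 31 at a p of 1e-10 and 9 with thinned FLI1, and the 5 RUNX1 summits became 1 at 1e-10 and 79 with the smaller library scaled up. The causes were not tested, beyond the fewer reads of a thinned library, the other width of a bin or window and the stricter limits. The pooled RUNX1 ratio at the FLI1 summits, the ratios at the paired letters and the counts of motifs stayed within 1 counting interval or 1.5 times under each recount of them, except that the pooled ratio of Runx3 fell from 1.88 to 0.566 without the summit by its start. At the paired letters the intervals are wide, so this check could hardly fail there. The RUNX1 ratio of the Runx2 pair ran from 1.82 to 5.47, within an interval of 0.391 to 10.3. The recounts of the pooled ratio and of the paired letters, and the genome-wide rate, were chosen after seeing the data. The RUNX1 depth limits all single sites in that library.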
